A study of Mus musculus with 2 samples.

Results

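The genes described here are 10 members of the p53 pathway and the cell cycle arrest programme: Trp53 itself, the arrest genes Cdkn1a, Cdkn2a and Ccng1, the p53 inhibitor Mdm2, the apoptosis genes Bax, Bbc3 and Pmaip1, and the stress genes Gdf15 and Sesn2. They were listed by name, with earlier results of these data known. Every open chromatin region that lay within 500 bp of a start site of these genes, inside the gene, or within 10 kb of it was taken from both deposited peak sets, which gave 96 regions, of 369634 regions when the peaks of both libraries were merged. Of the 96 regions, 67 were called in both libraries, 4 in the Control library alone and 25 in the MOF cKO library alone. Of all merged regions, 8.92% were called in Control alone and 33.2% in MOF cKO alone, from 249679 Control and 340134 MOF cKO peaks. All 10 genes had a promoter region called in both libraries, among 15720 protein-coding genes with such a promoter.

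The study profiled accessible chromatin in single cells (scATAC-seq, in which the transposase Tn5 cuts and tags open DNA) of mouse back skin at stage E16.5. In the study, Control animals were wild type or heterozygous littermates; 1 library came from Control embryos and 1 library from MOFfl/fl/K14Cre embryos (MOF cKO), in which a Cre recombinase driven by the keratin 14 promoter removes Mof (Kat8, a histone H4 lysine 16 acetyltransferase) in epithelial cells. Cells of both libraries carried the K14-H2BGFP reporter, and GFP-positive epithelial and GFP-negative cells were sorted and mixed again so that epithelial cells were enriched. The mice were of mixed C57Bl/6J and CD-1 background, and the Cre is not active in dermal cells, so that the dermis of the MOF cKO library kept its Mof alleles.

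p53 is a transcription factor that is held at a low level by the ubiquitin ligase Mdm2 and accumulates after DNA damage, nucleolar stress or oncogene activity. It binds a site made of a repeated short half-site and switches on genes that stop the cell cycle, such as the CDK inhibitor gene Cdkn1a (p21), genes that start mitochondrial apoptosis, such as Bax, Bbc3 (PUMA) and Pmaip1 (NOXA), and its own inhibitor Mdm2. Cdkn2a encodes p16Ink4a, which blocks CDK4 and CDK6, and from a start site further upstream p19Arf, which inhibits Mdm2. In skin the pathway is known for the response to ultraviolet light and for the loss of epidermal progenitors after DNA damage.

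The Control library held 2541 barcodes and 169641002 counted Tn5 cut sites, while 4348 barcodes and 324310197 sites came from MOF cKO, and 21 barcode sequences were found in both. By marker genes, 1696 Control and 2644 MOF cKO cells were epithelial-like, and 659 Control and 1252 MOF cKO cells were fibroblast-like. Median depth was 63455 sites per epithelial-like cell in Control and 73682 in MOF cKO, and 62502 and 49895 per fibroblast-like cell. Most epithelial-like cells clustered apart by genotype. Sites within 500 bp of any start site made up 43.8% of epithelial-like sites in Control and 34.5% in MOF cKO, against 47.4% and 46.4% in fibroblast-like cells. The promoter of Kat8 lay at 48.8 CPM in Control and 36.7 CPM in epithelial-like MOF cKO cells, but the promoter need not lie in the deleted part of the gene, so this value does not check the genotype. The design has 1 library per genotype. No difference between genotypes was tested, no p-value was computed, and every interval below is a 95% counting interval over fragments that leaves out variation between embryos. Levels are in CPM, cut sites in a region per 1000000 cut sites in all regions shared by both libraries, summed over the cells of a class. PCR copies are not covered by these intervals either.

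Sequences that match the p53 family site are shown first, because p53 is known to act through such elements. A p53 family full site was searched as a pair of half-sites up to 3 bases apart with the central C and G of each kept and at most 2 other mismatches, in 900 bp centred on each region, on the mm10 build (GRCm38, RefSeq). It was found in 5 of the 15 member promoter regions, and in 3.96% of all 17338 promoter regions. Outside promoters it was found in 3 of 47 member regions, against 6.52% of all 184524 regions of that kind. Overlapping matches were counted once. The 5 promoter regions were those of Bax, Ccng1, Gdf15 and Pmaip1 and the Cdkn1a upstream start. The 3 other regions were the last exon of Mdm2 (1.63) and a region 5.1 kb upstream of Pmaip1 (1.92), which both rose over 2-fold as described below, and the region 7.2 kb upstream of Mdm2 (0.19). All matches in shared regions are printed apart from those of Pmaip1. A match is a description of the letters and was not tested for binding. The stretches below are from the plus strand, with the site in capitals, and come from the Cdkn1a upstream start site (chr17:29090908-29090967), both ends of the Ccng1 promoter region (chr11:40754916-40754975 and chr11:40755442-40755501), the Bax promoter region (chr7:45467059-45467119 and chr7:45466574-45466593), the Gdf15 promoter region (chr8:70631966-70631985), the last exon of Mdm2 (chr10:117689281-117689303) and a region 7.2 kb upstream of Mdm2 (chr10:117717716-117717775).
Cdkn1a upstream start: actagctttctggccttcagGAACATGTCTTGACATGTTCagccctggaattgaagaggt
Ccng1 downstream of the start: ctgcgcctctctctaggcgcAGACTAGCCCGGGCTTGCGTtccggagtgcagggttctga
Ccng1 upstream of the start: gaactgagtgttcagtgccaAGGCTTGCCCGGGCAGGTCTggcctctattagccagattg
Bax: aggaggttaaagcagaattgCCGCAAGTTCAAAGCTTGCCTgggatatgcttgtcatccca
Bax downstream of the start: CGACAAGCCCGGGCCTGCCC
Gdf15: AGGCAAGTTCAGGCAAGTCA
Mdm2 last exon: GGGCTGGTTTCTAAACCTAGCCT
Mdm2 upstream: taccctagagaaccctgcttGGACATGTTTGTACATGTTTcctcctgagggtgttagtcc

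The start sites themselves differed in base composition, and 4 of them are shown because they set CpG-poor starts whose region was higher in epithelial-like MOF cKO cells (Gdf15 and the Cdkn1a upstream start) beside CpG-rich starts whose region was lower. Each stretch holds the 250 bases before a RefSeq start site, 5′ to 3′ on the strand of the gene, with the GC box (GGGCGG or CCGCCC, either strand) in capitals. The GC box was present in 32.7% of all 32851 RefSeq promoter stretches of this length, and 9 of the 10 genes were matched by symbol. The ratio of observed to expected CpG was 0.0532 before the upstream Gdf15 start (chr8:70632457-70632706, minus strand) and 0.11 before the Cdkn1a upstream start (chr17:29090729-29090978, plus strand). Before another RefSeq start of Gdf15 (chr8:70632096-70632345, minus strand), not shown, it was 0.306. The measured Gdf15 region is centred 0.4 kb downstream of the most upstream start site of the gene. The CpG ratio was 0.771 before the main Cdkn1a start (chr17:29093519-29093768, plus strand) and 1.09 before the Mdm2 start (chr10:117710759-117711008, minus strand), with a median of 0.373 over all stretches. The Cdkn2a starts, not shown, went the other way. The ratio was 0.316 before the p16Ink4a start, whose region was lower (-0.54), and 1.08 before the p19Arf start, whose region was higher (0.19).
Gdf15: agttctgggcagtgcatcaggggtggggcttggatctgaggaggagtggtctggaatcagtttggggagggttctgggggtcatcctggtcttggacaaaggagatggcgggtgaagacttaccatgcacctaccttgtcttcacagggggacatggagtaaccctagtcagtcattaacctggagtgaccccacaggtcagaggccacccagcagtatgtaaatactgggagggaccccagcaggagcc
Cdkn1a upstream start: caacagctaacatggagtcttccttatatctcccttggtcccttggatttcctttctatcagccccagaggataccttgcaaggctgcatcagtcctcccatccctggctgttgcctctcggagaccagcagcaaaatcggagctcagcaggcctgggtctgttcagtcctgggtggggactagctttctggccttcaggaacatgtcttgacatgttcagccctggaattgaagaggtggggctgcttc
Cdkn1a main start: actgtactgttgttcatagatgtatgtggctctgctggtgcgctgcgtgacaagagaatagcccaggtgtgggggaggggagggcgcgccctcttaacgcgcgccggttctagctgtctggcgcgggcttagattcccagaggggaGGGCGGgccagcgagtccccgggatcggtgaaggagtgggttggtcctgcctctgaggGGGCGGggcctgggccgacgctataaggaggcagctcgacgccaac
Mdm2: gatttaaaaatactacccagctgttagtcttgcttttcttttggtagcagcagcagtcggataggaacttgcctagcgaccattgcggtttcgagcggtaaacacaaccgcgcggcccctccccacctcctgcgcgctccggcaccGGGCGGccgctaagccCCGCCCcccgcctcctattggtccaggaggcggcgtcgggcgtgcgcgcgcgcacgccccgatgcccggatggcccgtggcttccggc

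In epithelial-like cells, 8 of the 10 promoters were lower in MOF cKO with a counting interval below 0, Gdf15 was higher, and the interval of Cdkn2a included 0. Over all promoters, 79.1% had an interval below 0 and 8.83% an interval above 0. The median change was -0.33 (log2 of MOF cKO over Control). The median over all promoters was -0.42, with 86.2% of promoters below 0. When changes were scaled so that the median promoter of the class did not change, only 3 of the 10 promoters lay below 0 and the median of the 10 was 0.09, so the lower level of Cdkn1a, Bbc3, Pmaip1, Ccng1 and Sesn2 depends on the scale. Cdkn2a, at 0.08, was at -0.06 with the total of each library's own peaks. Relative to the median promoter, 7 of the 10 were higher, with Gdf15 0.81 and Cdkn2a 0.50 above it on the log2 scale, and the other 3, Trp53, Mdm2 and Bax, were 0.10, 0.10 and 0.16 below it. No member reached a 2-fold change in either direction. Among all promoters, 2.62% fell 2-fold or more and 2.18% rose 2-fold or more.

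In fibroblast-like cells the median change of the member promoters was -0.03, as was the median over all 15596 promoters measured, and both were at -0.31 with sites per cell. No member reached 2-fold, where 0.872% of all promoters fell and 1.91% rose by that much. Counting intervals lay below 0 for Cdkn2a, Bax and Cdkn1a, and included 0 for the other 7 genes, where 18% of all promoters lay below and 10.2% above 0.

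**Figure D1:**
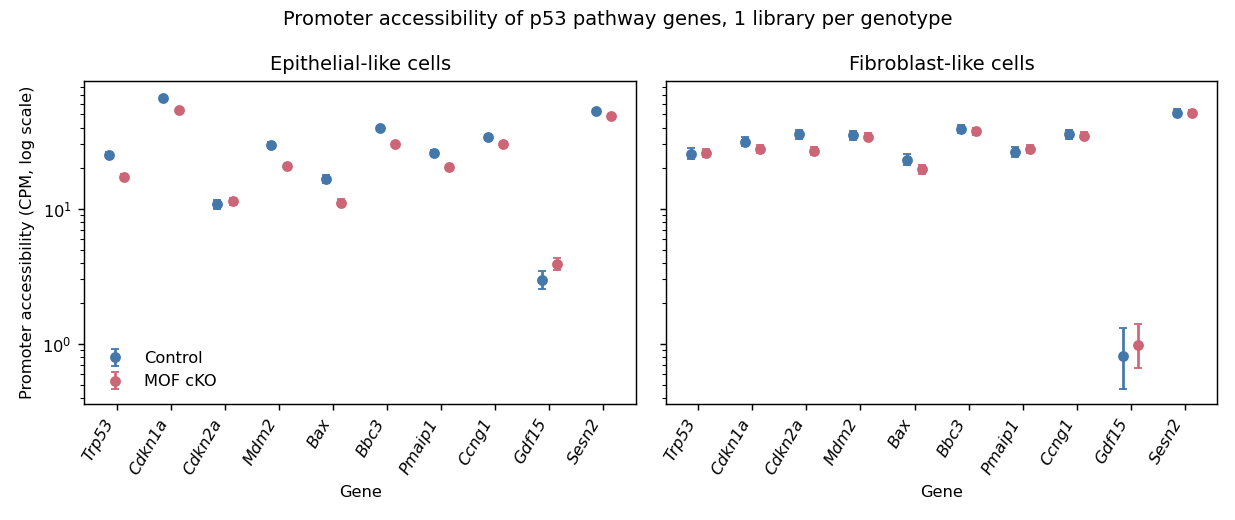
Promoter accessibility (CPM, log axis) of the 10 genes in epithelial-like (left) and fibroblast-like (right) cells; points are the 1 Control (blue) and 1 MOF cKO (red) library, bars 95% counting intervals. Control lies above MOF cKO for 8 of 10 genes on the left, while Gdf15 is the lowest promoter in both panels.

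Trp53 encodes p53. Its promoter region (chr11:69579974-69580797, which also lies within 500 bp of a start site of the neighbouring gene Wrap53) held 24.9 CPM (23.7 to 26.2) in Control and 17.3 CPM (16.54 to 18.15) in epithelial-like MOF cKO cells. The change was -0.52 (-0.62 to -0.42). In fibroblast-like cells the levels were 25.7 CPM and 26.0 CPM, and the change was 0.02 (-0.15 to 0.18). The region over the divergent Wrap53 promoter, 1.1 kb upstream, changed by -0.51 in epithelial-like cells, and an intronic region 1.1 kb downstream of the Trp53 start by -0.46 (30.2 to 21.9 CPM). These 3 neighbouring regions were thus lower together, by an amount close to the median promoter. A region 18.4 kb downstream of the start was higher, at 2.48 CPM in Control and 4.69 CPM in MOF cKO (0.92, 0.65 to 1.19).

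Cdkn1a, which encodes the CDK inhibitor p21, had the highest promoter level of the 10 in epithelial-like cells as a sum over its 4 promoter regions, 66.8 CPM (64.7 to 68.9) in Control and 53.7 CPM (52.3 to 55.2) in MOF cKO, a change of -0.31 (-0.37 to -0.25). In Control cells this sum was higher in epithelial-like than in fibroblast-like cells by 1.09 on the log2 scale, with 31.4 CPM in fibroblast-like cells. The sum hides regions that moved in opposite directions. The region over the main start site (chr17:29093267-29094175, shared with the antisense transcript AC167363.2) held 44.8 CPM in Control and 34.2 CPM in MOF cKO, a change of -0.39 (-0.46 to -0.32). An internal start site 6.2 kb downstream of the upstream one (chr17:29096728-29097712) held 18.4 and 12.7 CPM in epithelial-like cells, a change of -0.54, and only 1.99 and 1.45 CPM in fibroblast-like cells.

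The weakly open regions at the upstream Cdkn1a start behaved otherwise. The region that holds the upstream start and the p53 family site printed above (chr17:29090471-29091330) held 1.91 CPM in Control and 3.12 CPM in epithelial-like MOF cKO cells, a change of 0.71 (0.39 to 1.03). When every cell was thinned to 5000 sites that change was 0.09. The region next to it (chr17:29091460-29092359) held 1.60 and 3.77 CPM, a change of 1.24 (0.91 to 1.58). In fibroblast-like cells both held under 0.5 CPM in each library, and their intervals included 0. Of all the member regions, the one that rose most in epithelial-like cells was the region over the last exon of Cdkn1a that runs past the end of the gene (chr17:29100258-29101301), with 199 sites in Control and 2046 sites in MOF cKO, or 1.70 and 9.89 CPM, a change of 2.54 (2.24 to 2.85). In fibroblast-like cells the same region held 2.60 and 2.08 CPM, and the change was -0.32 (-0.87 to 0.23). Under the 14 alternative settings its epithelial change lay between 2.40 and 2.96. Further upstream, 10.1 and 8.9 kb before the start, regions at 3.35 and 8.42 CPM in Control changed by 0.73 and 0.41 in epithelial-like cells, and by -0.49 and -0.37 in fibroblast-like cells.

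Cdkn2a, the locus of p16Ink4a and p19Arf, was the member with the largest difference between cell classes in favour of fibroblast-like cells. The region over the p19Arf start (chr4:89294423-89295346) held 8.89 CPM in Control epithelial-like cells and 32.4 CPM in Control fibroblast-like cells. In MOF cKO it held 10.1 CPM in epithelial-like and 24.8 CPM in fibroblast-like cells. The change was thus 0.19 (0.03 to 0.34) in epithelial-like and -0.39 (-0.54 to -0.23) in fibroblast-like cells, on opposite sides of 0. Intervals on opposite sides of 0 were found in 5 of the 65 member regions measured in both classes, and in 4.99% of all 199271 regions so measured. The p16Ink4a start (chr4:89281762-89282693) was barely open, at 1.89 and 1.30 CPM in epithelial-like and 3.28 and 2.13 CPM in fibroblast-like cells. Its epithelial change was -0.54, and 0.14 when every cell was thinned to 5000 sites. Summed over both start sites, the fibroblast change was -0.41 (-0.55 to -0.26), and -0.16 with the finer clustering. The finer clustering named a deep cluster fibroblast-like (104 Control and 6 MOF cKO cells, median 150936 sites, 4 of 10 markers). In the main clustering a cluster of 104 and 6 cells with a median of 153575 sites was epithelial-like. The part of these deep cells in the shift to -0.16 was not tested. Fibroblast-like cells of the genotypes lay largely in different clusters, and in the 1 that held most MOF cKO cells (82 Control and 475 MOF cKO cells) Cdkn2a was at 22.1 CPM (16.4 to 29.3) and 24.0 CPM (21.4 to 26.9). In the 1 that held most Control cells (343 and 79) it was at 38.9 CPM (35.5 to 42.7) and 33.5 CPM (26.4 to 42.0). In a cluster with near equal numbers (231 and 234) it was at 34.0 CPM (29.4 to 39.2) and 27.0 CPM (22.7 to 31.8). The remaining fibroblast-like cluster held 3 Control and 464 MOF cKO cells, so that it has no Control value, and Cdkn2a was at 28.8 CPM (25.7 to 32.2) in its MOF cKO cells. A region 7.6 kb upstream of the p19Arf start (chr4:89301703-89302793) held 1.14 CPM in Control and 4.17 CPM in epithelial-like MOF cKO cells (1.87, 1.49 to 2.26), and 1.14 and 1.19 CPM in fibroblast-like cells. In between, 2.1 kb upstream, a region was called in MOF cKO alone, with 748 sites in epithelial-like and 43 sites in fibroblast-like cells. It was not counted in Control cells.

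Ccng1 encodes cyclin G1, a p53 target that recruits a phosphatase to Mdm2. Its promoter region (chr11:40754872-40755731) carries 2 of the p53 family sites shown above, and held 33.9 CPM (32.4 to 35.4) in Control and 30.3 CPM (29.3 to 31.4) in epithelial-like MOF cKO cells, a change of -0.16 (-0.24 to -0.08). The fibroblast levels were 35.6 and 34.9 CPM. A region 7.6 kb downstream of the start (chr11:40747266-40748199), past the end of the gene, held 0.85 and 2.41 CPM (1.50, 1.06 to 1.97).

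Mdm2, the ubiquitin ligase that limits p53, had a lower shared promoter region and higher regions elsewhere at the locus. Its promoter region (chr10:117710386-117711175) held 29.7 CPM (28.4 to 31.2) in Control and 20.7 CPM (19.9 to 21.6) in epithelial-like MOF cKO cells, a change of -0.52 (-0.61 to -0.43). The fibroblast levels were 35.0 and 34.3 CPM. All 8 other shared regions of Mdm2 had a change above 0 in epithelial-like cells, with a median of 1.02, and 4 of them rose 2-fold or more. Among all non-promoter regions 45.2% were above 0 and 18.2% rose 2-fold or more. They were weakly open, from 0.49 to 2.77 CPM in Control. The intronic region at chr10:117697318-117698106 held 0.78 and 2.57 CPM (1.72, 1.27 to 2.21), and the region over the last exon (chr10:117688967-117689899) 0.88 and 2.71 CPM (1.63, 1.19 to 2.08). The region 7.2 kb upstream with the p53 family site held 2.77 and 3.16 CPM (0.19, -0.09 to 0.47). A region 0.7 kb downstream of the start (chr10:117709774-117710289), near which the internal p53-dependent promoter of the gene is known to lie, was called in MOF cKO alone. It held 2463 sites in epithelial-like and 402 sites in fibroblast-like cells of MOF cKO, or 10.4 and 6.04 CPM of all sites in that library's own peaks, and was not counted in Control cells. In immune-like cells of MOF cKO it was at 23.1 CPM on that scale. It lies directly beside the promoter region shared by both libraries, and no p53 family site was matched in its window. It is itself within 500 bp of an Mdm2 start site. As a region called in 1 library it is left out of the promoter level and change of Mdm2, which cover the shared region only.

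The promoters of the 3 apoptosis genes were lower in epithelial-like MOF cKO cells, as were 86.2% of all promoters, and Bbc3 and Pmaip1 lay above the median promoter. Bax, which permeabilises the outer mitochondrial membrane, showed the largest decrease of the 10: its promoter region (chr7:45466465-45467327) held 16.7 CPM (15.6 to 17.7) in Control and 11.1 CPM (10.5 to 11.8) in MOF cKO, a change of -0.58 (-0.71 to -0.46). In fibroblast-like cells it held 23.1 and 19.7 CPM, a change of -0.23 (-0.41 to -0.05). Its 3 shared regions over 500 bp from any start site had changes between -0.65 and -0.50. A region 15.4 kb downstream of the Bax start (chr7:45451043-45452021), at an annotated start site of the neighbouring gene Gys1, was higher, at 10.7 and 14.8 CPM (0.47, 0.33 to 0.60). Of the 9 regions at Bax, 3 were called in MOF cKO alone, as were 33.2% of all merged regions. The promoter of Ftl1, a neighbour that encodes the ferritin light chain and lies 7.1 kb downstream of the Bax start, changed by -0.97 (37.0 to 18.9 CPM).

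Bbc3, which encodes the BH3-only protein PUMA, had 2 promoter regions that held 39.4 CPM (37.8 to 41.0) in Control and 30.2 CPM (29.1 to 31.2) in epithelial-like MOF cKO cells, a change of -0.39 (-0.47 to -0.31). The upstream one (chr7:16309160-16309804) changed by -0.13 and the other (chr7:16309896-16310496) by -0.60. Regions 9.8 kb upstream (chr7:16299378-16300291) and 11.7 kb downstream of the start (chr7:16320858-16321787) were lower as well, at 7.81 and 4.80 CPM (-0.70, -0.89 to -0.51) and at 4.21 and 2.35 CPM (-0.84, -1.10 to -0.58). The second was open in epithelial-like cells, with 0.18 and 0.13 CPM in fibroblast-like cells.

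Pmaip1, which encodes the BH3-only protein NOXA, held 25.9 CPM (24.6 to 27.3) in Control and 20.4 CPM (19.5 to 21.3) in epithelial-like MOF cKO cells at its promoter, a change of -0.35 (-0.44 to -0.25). The fibroblast levels were 26.3 and 27.6 CPM. A region 5.1 kb upstream of its start held 0.68 and 2.58 CPM in epithelial-like cells (1.92, 1.44 to 2.44) and 1.19 and 2.38 CPM in fibroblast-like cells (1.01, 0.32 to 1.74). In immune-like cells the same region held 17.3 and 23.8 CPM. Of the 13 regions at Pmaip1, 7 were called in MOF cKO alone, as were 33.2% of all merged regions.

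Gdf15 encodes a secreted stress cytokine of the TGF-beta family. Its promoter was the least open of the 10, with 2.97 CPM (2.54 to 3.44) from 348 sites in Control and 3.90 CPM (3.53 to 4.30) from 807 sites in epithelial-like MOF cKO cells, a change of 0.39 (0.13 to 0.66). It was the only member promoter whose epithelial interval lay above 0. Its level differed between clusters, with 5.55 CPM (4.7 to 6.5) in the MOF cKO cluster of 727 cells. The MOF cKO clusters of 1151 and 572 cells held 3.54 CPM (3.03 to 4.10) and 2.96 CPM (2.26 to 3.81). The Control clusters of 772 and 520 cells held 3.68 CPM (2.99 to 4.47) and 2.31 CPM (1.71 to 3.06). In fibroblast-like cells 32 and 61 sites gave 0.81 and 0.98 CPM, a change of 0.28 (-0.63 to 1.25). Around the gene the regions moved both ways. The regions 7.1, 9.1 and 11.4 kb downstream of the start (chr8:70624861-70625831, chr8:70622785-70623875 and chr8:70620567-70621450) were lower in epithelial-like MOF cKO cells, by -0.78 (4.76 to 2.77 CPM), -1.32 (2.41 to 0.97 CPM) and -0.90 (0.99 to 0.53 CPM). A region 13.4 kb downstream (chr8:70618605-70619528) held 2.87 and 7.35 CPM (1.36, 1.12 to 1.61), and was also higher in fibroblast-like MOF cKO cells, at 3.53 and 5.62 CPM (0.67, 0.26 to 1.09). The same region was most open in immune-like cells, at 59.6 and 76.3 CPM.

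Sesn2 encodes sestrin 2, which restrains mTORC1 under stress. Its promoter region (chr4:132510127-132511064, shared with the transcript Gm12981) was the most open of the 10 per kb of region, with 56.3 CPM per kb in Control and 51.7 in epithelial-like MOF cKO cells. In CPM it held 52.9 (51.0 to 54.7) and 48.5 (47.2 to 49.9), a change of -0.12 (-0.19 to -0.06), the smallest decrease of the 8 lower promoters. The fibroblast levels were 51.5 CPM in both libraries.

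**Figure D2:**
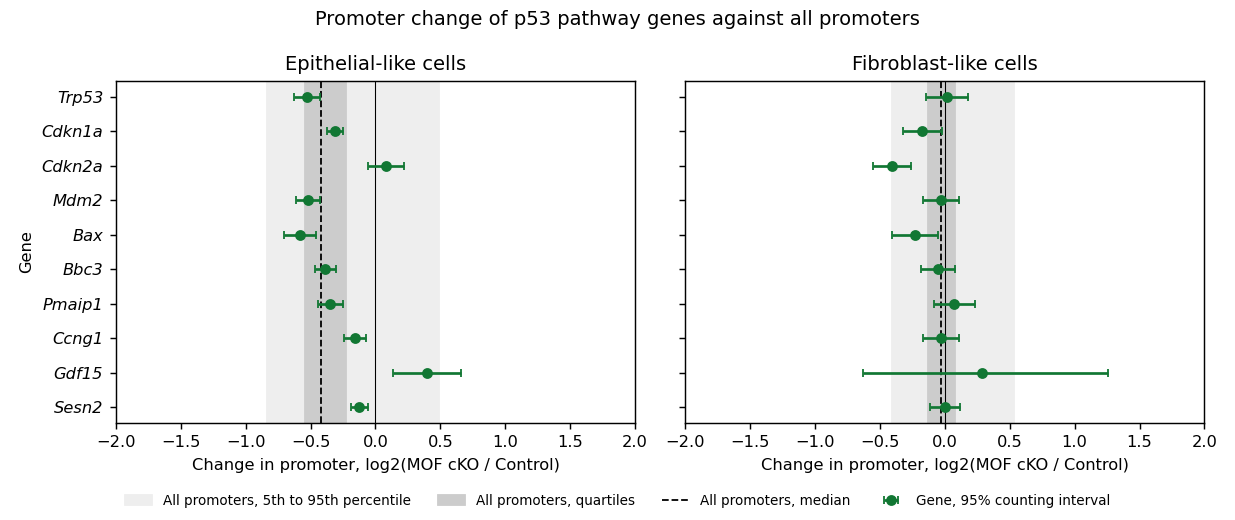
Promoter change (x axis, log2 of MOF cKO over Control) of each gene with its 95% counting interval, over the spread of all promoters (grey bands) and their median (dashed line), in epithelial-like (left) and fibroblast-like (right) cells. On the left 7 genes lie to the right of the dashed line at -0.42 and Gdf15 lies above 0; on the right the genes lie around the median of -0.03.

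Ordered by level per kb of promoter region in Control epithelial-like cells, Sesn2 was followed by Ccng1 (39.4 CPM per kb), Mdm2 (37.7), Bbc3 (31.6), Trp53 (30.3), Pmaip1 (27.7), Bax (19.3), Cdkn1a (18.3), Cdkn2a (5.81) and Gdf15 (3.97). In MOF cKO epithelial-like cells Ccng1 (35.3) and Mdm2 (26.2) kept their places. Bbc3 (24.2) was followed there by Pmaip1 (21.8) and Trp53 (21.0), whose counting intervals overlapped each other. Cdkn1a (14.7) lay above Bax (12.9) there, with counting intervals that did not overlap. Counting intervals of the neighbours Ccng1 and Mdm2, Bbc3 and Trp53, Trp53 and Pmaip1, and Bax and Cdkn1a overlapped in Control. The level of Cdkn1a per kb is lowered by its 4 regions, of which 2 are nearly closed. Between the classes of the Control library, Gdf15 and Cdkn1a were higher in epithelial-like cells, by 1.88 and 1.09 on the log2 scale, and Cdkn2a, Bax and Mdm2 were higher in fibroblast-like cells, with changes of -1.73, -0.47 and -0.24 for epithelial-like over fibroblast-like cells. The other 5 differed by under 0.1. In immune-like cells (46 Control and 281 MOF cKO cells) the MOF cKO library gave 51.2 CPM for Cdkn1a, 51.0 for Mdm2 and 75.9 for Sesn2.

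As a share of cells, with each cell thinned to 5000 sites so that depth did not differ, 27.3% of Control and 23.1% of MOF cKO epithelial-like cells had a site in a Cdkn1a promoter region (unthinned, 70.0% and 79.8%). For Gdf15 the thinned shares were 0.978% (0.536 to 1.64) and 1.65% (1.20 to 2.22), and unthinned 9.08% and 13.8%. In Control fibroblast-like cells 0 of 621 thinned cells had a Gdf15 site, with an exact binomial upper limit of 0.592% at that thinned depth only, and 15 of 659 unthinned cells (2.28%) had one. The Cdkn1a shares unthinned were higher in MOF cKO and thinned were lower, and the thinned order is that of the CPM.

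Within the epithelial-like class the members were not level across clusters. The 5 MOF cKO clusters included 1 of 68 cells with a median of 16889 sites, well below the depth of the others, which had the highest level of the 5 for 8 of the 10 genes, as it had for 55.1% of all promoters. Its levels were 117 CPM for Sesn2, 92.9 for Bbc3, 87.7 for Cdkn1a and 45.0 for Pmaip1. The largest MOF cKO cluster had the lowest Sesn2 (46.4 CPM), Bbc3 (27.8), Cdkn1a (47.7) and Pmaip1 (19.1). Cdkn2a was highest in that small cluster (23.6 CPM) and, in Control, in a cluster with very deep cells and a high doublet score (18.3 CPM, against 9.08 in the largest Control cluster). Without that cluster and its deep MOF cKO counterpart, the epithelial change of Cdkn2a was 0.23 in place of 0.08. The part of doublets in the Cdkn2a level was not tested.

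**Figure D3:**
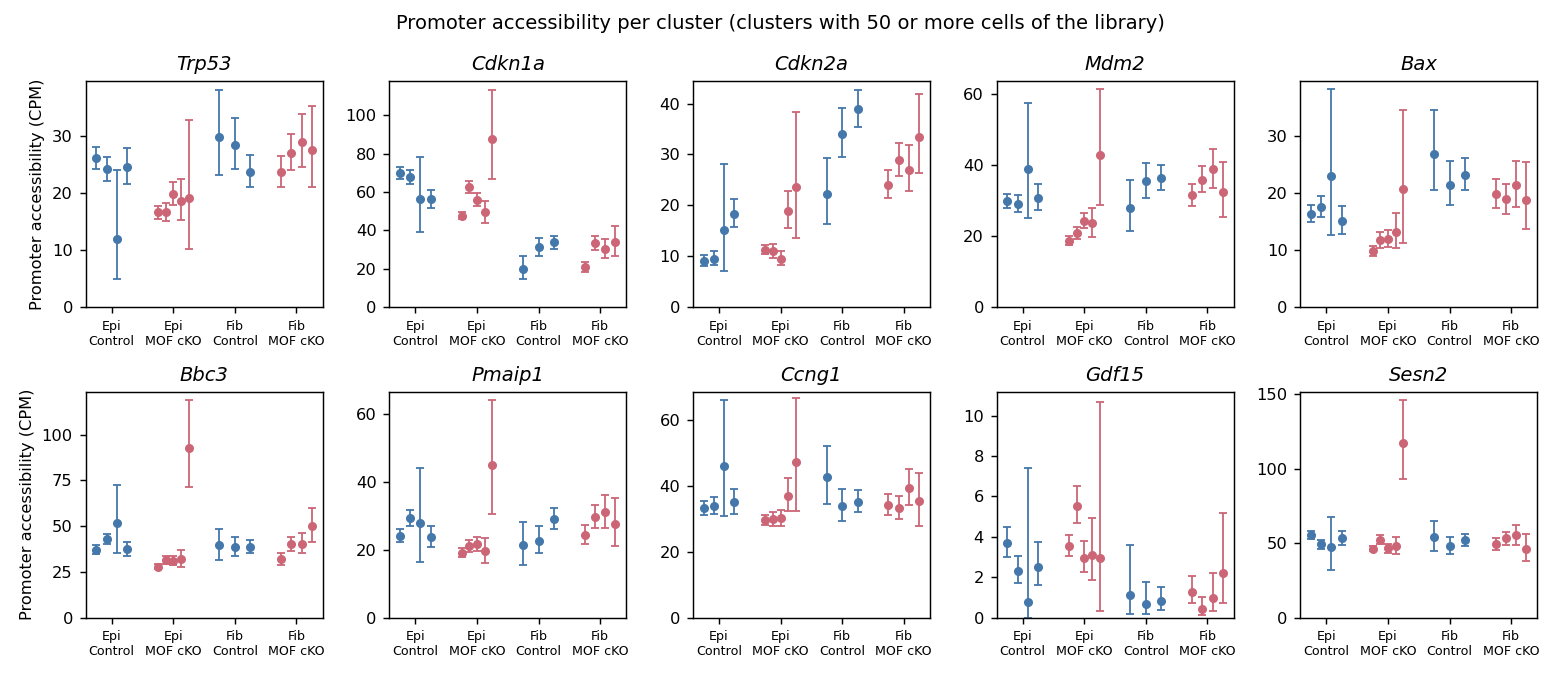
Promoter accessibility (CPM, y axis from 0) of each gene in every epithelial-like (Epi) and fibroblast-like (Fib) cluster with 50 or more cells of a library; points are clusters, bars 95% counting intervals, blue Control and red MOF cKO. The fifth MOF cKO epithelial-like point, the cluster of 68 cells, reaches 117 CPM for Sesn2, and Cdkn2a is higher in fibroblast-like than in most epithelial-like clusters.

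Away from promoters the members had a median change above 0. Over the 47 shared member regions that lay over 500 bp from any annotated start site, the median epithelial change was 0.41, where the median over all 184524 such regions was -0.10. Of the 47, 10 rose 2-fold or more and 1 fell 2-fold or more, where 18.2% of all such regions rose and 13.6% fell by that much. The share that rose, 10 of 47, is near that background. On the scale set by the median promoter every region shifts upward by the same amount, and 21 of the 47 rose and 0 fell by that much, where 26.4% of all such regions rose and 5.64% fell on that scale. Counting intervals lay above 0 for 25 of the 47 and below 0 for 13, where 31.7% of all such regions lay above and 34.7% below 0. In fibroblast-like cells, 45 regions were measured, with a median of -0.09, and 3 rose and 0 fell 2-fold or more. The background there was 12% that rose and 7.82% that fell. These counts changed with the processing, since at the finer clustering 1 rose and 6 fell, and after thinning 0 rose of the 21 that still had enough sites. At the finer clustering the fibroblast-like class held a deep cluster of 104 Control and 6 MOF cKO cells. The shares of all such regions under these settings were not computed, so these counts are not read as a trait of the members. The 3 that rose in the main setting are named after their values were seen. They were a region 8.7 kb upstream of Mdm2 (0.23 and 1.87 CPM, a change of 3.04, 1.68 to 4.83), the region downstream of Ccng1 and the region upstream of Pmaip1. The Ccng1 region rests on 6 and 24 sites, with an interval that included 0 (1.35, -0.54 to 3.82).

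Immune-like cells made up 46 Control and 281 MOF cKO cells, and part of the regions that rose were open in them. Of the 10 regions that rose 2-fold in epithelial-like cells, 4 were over 2 times as open in immune-like as in epithelial-like cells of MOF cKO, 5 were so in Control, and 3 in both. The share of all regions past this cut was not computed, so these counts are not read as a trait of the members. The epithelial level in Control is also the denominator of the rise, so regions picked for a rise favour a high ratio in Control. The 4 in MOF cKO, named after their values were seen, were the Gdf15 region 13.4 kb downstream, the Pmaip1 region 5.1 kb upstream, the Mdm2 region 8.7 kb upstream (1.57 and 19.0 CPM in immune-like cells) and a Sesn2 region 15.8 kb downstream of the start (29.3 and 34.4 CPM). The Mdm2 region was not among the 5 in Control, which held the other 3, the intronic Mdm2 region at chr10:117697318-117698106 (2.09 and 2.38 CPM in immune-like cells) and the region at the end of Cdkn1a. The Control value of the intronic Mdm2 region rests on few sites, and in MOF cKO its ratio to the epithelial-like level was 0.93. The region at the end of Cdkn1a held 13.6 CPM in Control and 3.52 CPM in MOF cKO immune-like cells, against 1.70 and 9.89 CPM in epithelial-like cells. Of 10 immune marker genes 9 had a promoter value, and their summed level was 45.6 CPM in Control and 57.7 CPM in MOF cKO epithelial-like cells. In MOF cKO 6 of the 9 were higher, where 86.2% of all promoters of that class were lower. Higher by most in CPM were the macrophage genes Cd68 (15.1 and 24.9 CPM) and Csf1r (1.44 and 7.02 CPM), while Cd74 (16.4 and 13.6 CPM), Coro1a (9.51 and 8.51 CPM) and Laptm5 (0.61 and 0.58 CPM) were lower. In fibroblast-like cells the sum was 34.4 and 34.9 CPM, with 7 of the 9 higher, where 58.8% of all promoters were lower. In immune-like cells the sum was 327 and 336 CPM. No marker was at 0 in these classes, and Ptprc, which encodes the leukocyte antigen CD45, held 0.28 and 0.30 CPM in epithelial-like and 0.025 and 0.18 CPM in fibroblast-like cells. The part of immune cells in these rises was not tested.

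By level in Control, which is also the denominator of the change, the regions differed. All 10 that rose 2-fold were among the 27 with less than 3 CPM in Control epithelial-like cells, whose median change was 0.77, with 21 of them above 0. Of all non-promoter regions at that level, 48.2% were above 0 and 21.3% rose 2-fold. The 14 regions between 3 and 10 CPM had a median of -0.29 and the 6 at 10 CPM or more a median of -0.42. Over all non-promoter regions the medians in these level classes were -0.04, -0.18 and -0.32. By gene, Mdm2 had 8 of 8 regions above 0, Pmaip1 4 of 5, Cdkn1a 3 of 4, Ccng1 2 of 3, Cdkn2a 2 of 2, Trp53 2 of 4, Bbc3 2 of 4, Gdf15 4 of 8, Sesn2 2 of 6 and Bax 0 of 3, where 45.2% of all non-promoter regions were above 0.

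**Figure D4:**
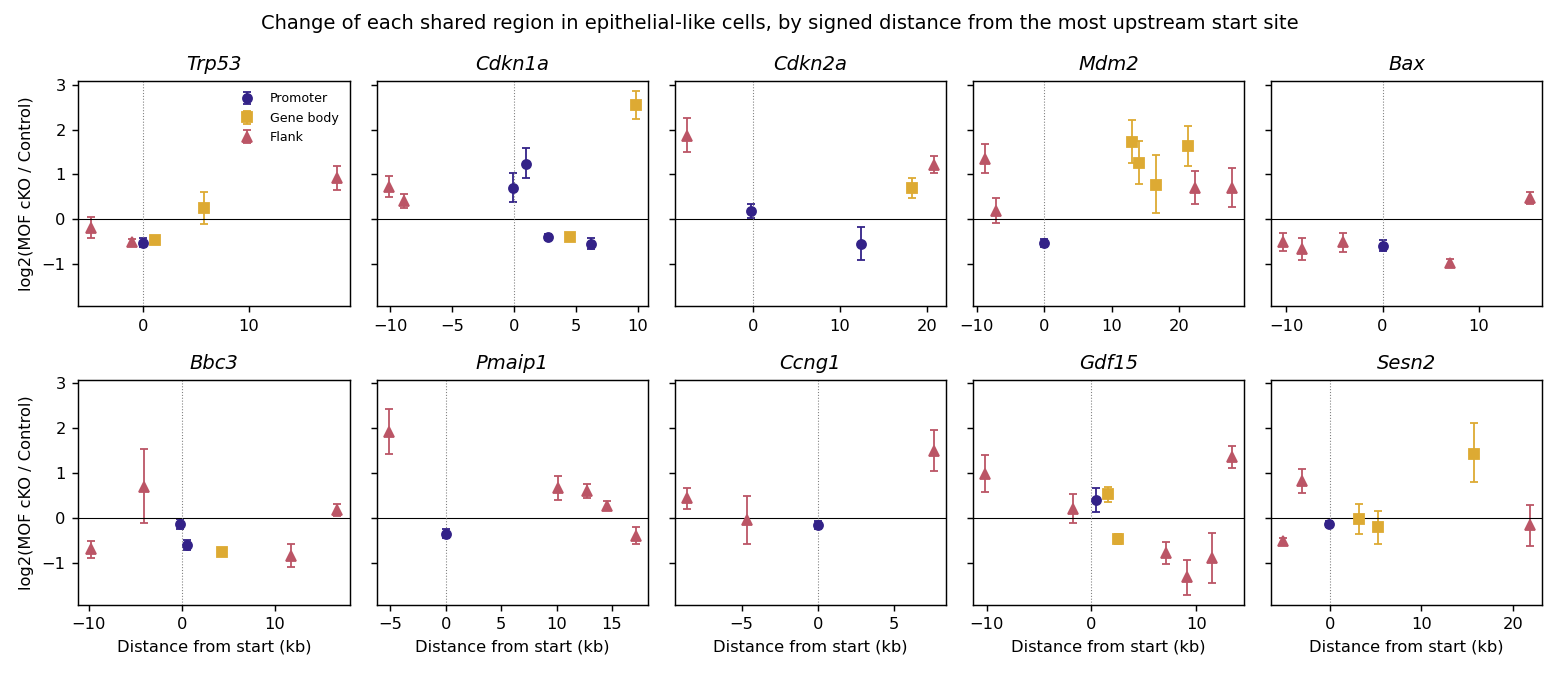
Change of each shared region in epithelial-like cells (y axis, log2 of MOF cKO over Control, 95% counting interval) by distance of its centre from the most upstream start site of the gene (x axis, kb, negative upstream); circles are promoter regions, squares lie in the gene and triangles within 10 kb of it, some of them at start sites of neighbouring genes such as Wrap53 and Ftl1. The highest point, 2.54, is the region at the end of Cdkn1a, and every Mdm2 region apart from its promoter lies above 0.

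Promoter regions with a low CpG ratio were more often above 0 than the others. Of the 15 member promoter regions, 4 had a CpG ratio (observed over expected, in 900 bp) under 0.4, namely both regions at the upstream Cdkn1a start, the Gdf15 region and the intronic Cdkn1a start, and 3 of these 4 were above 0. Those 3 were weakly open in Control, and the intronic Cdkn1a start, which was below 0, was not. The Control level is the denominator of the change, and among these 4 it cannot be told apart from base composition. Of the 11 with a ratio of 0.4 or more, 1 was above 0, the p19Arf start of Cdkn2a with a ratio of 1.09. Over all promoter regions, 40.1% of 3767 with a ratio under 0.4 and 10.5% of 13571 with a higher ratio were above 0, with median changes of -0.20 and -0.43.

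The AP-1 site (TGACTCA or TGAGTCA, both strands) was looked up in the same windows, because AP-1 factors act at many epidermal enhancers. It was present in 3 of the 10 member regions that rose 2-fold or more and in 11 of the other 37, where 62.5% of all non-promoter regions that rose 2-fold and 19.5% of the others held one. The 3 regions lay 13.4 kb downstream of the Gdf15 start, inside Mdm2 (chr10:117696162-117697219, 0.80 and 1.92 CPM) and upstream of Pmaip1. Neither the region at the end of Cdkn1a nor the one 7.6 kb upstream of the p19Arf start had this motif in its window. Regions called in 1 library were not part of these counts. Among them, the region 2.1 kb upstream of the p19Arf start, called in MOF cKO alone, held an AP-1 site, as did others called in MOF cKO alone. The stretches from Gdf15 (chr8:70618999-70619045) and Mdm2 (chr10:117696860-117696906) are given with the site in capitals, plus strand.
Gdf15 13.4 kb downstream: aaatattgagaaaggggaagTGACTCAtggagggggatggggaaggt
Mdm2 gene body: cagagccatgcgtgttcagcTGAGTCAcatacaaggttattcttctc

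Related gene lists placed the 10 promoters among their pathway, and their values are read against all promoters, of which 86.2% were below 0 with a median of -0.42. Of 30 other p53 target genes 29 had a promoter value, and their median epithelial change was -0.38, with 28 below 0 and none at 2-fold in either direction. The one above 0 was Eda2r, a receptor of the TNF receptor family, at 11.8 CPM in Control and 16.8 in MOF cKO (0.51), and the lowest was Ak1, an adenylate kinase, at -0.68. In fibroblast-like cells Eda2r changed by -0.02 and Ak1 by -0.76. All 25 p53 regulators and family members were below 0, with a median of -0.50. The lowest was Trp63, the basal keratinocyte member of the p53 family, at 26.3 and 12.5 CPM (-1.07) summed over 2 promoter regions. It was the 1 gene of its list past 2-fold, and was also lower in fibroblast-like cells, at 5.93 and 3.06 CPM (-0.95). These values are of accessibility, and by staining the paper reports robust ΔNp63 expression in MOF cKO. The highest of the 25 was the deacetylase gene Sirt1 at -0.24.

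The 34 cell cycle drivers had a median of -0.50, with 33 below 0, and a median of -0.0782 on the scale set by the median promoter. Foxm1, a factor of G2 and M phase genes, fell from 31.1 to 15.4 CPM (-1.01) and was the 1 driver past 2-fold, with a change of 0.00 (-0.17 to 0.17) in fibroblast-like cells. Cdk6 was the 1 driver above 0, at 13.2 and 20.6 CPM (0.64), and was also higher in fibroblast-like cells (0.33, 0.14 to 0.51). The 17 CDK inhibitors and RB family genes other than the members had a median of -0.47, from Rbl1 (p107) at -0.85 to Cdkn2b (p15Ink4b, beside Cdkn2a) at 21.2 and 25.7 CPM (0.27). The 22 BCL2 family and caspase genes had a median of -0.54, from Casp8 at -0.81 to the BH3-only gene Bik at -0.08 (-0.21 to 0.04). Of 23 integrated stress response genes 22 had a value, with a median of -0.45, from the serine synthesis gene Phgdh at -0.73 to the cystine transporter gene Slc7a11 at 0.27. Both moved the same way in fibroblast-like cells, Phgdh by -0.49 and Slc7a11 by 0.56. Apart from Trp63 and Foxm1, no gene of these lists reached 2-fold in either direction. In fibroblast-like cells the list medians lay between -0.06 and -0.01.

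**Figure D5:**
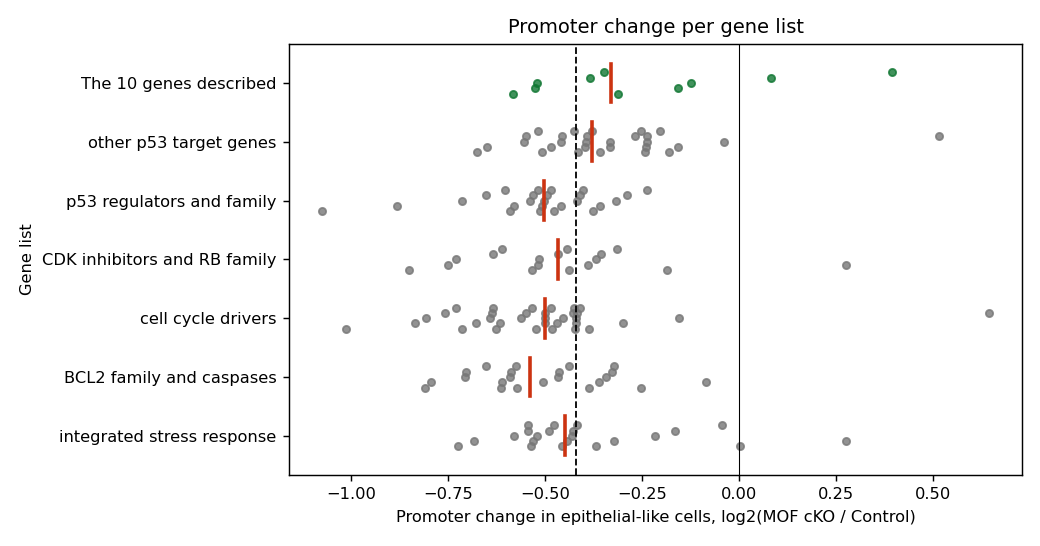
Promoter change in epithelial-like cells (x axis, log2 of MOF cKO over Control) of each gene (points) of the 10 genes described (green) and 6 related lists (grey); red bars are list medians and the dashed line is the median over all promoters. The medians run from -0.54 for BCL2 family and caspases to -0.33 for the 10 genes, on both sides of the dashed line at -0.42.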

How the data were processed

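The authors sorted K14-H2BGFP-positive and GFP-negative cells of embryonic back skin, mixed them and built 1 scATAC library per genotype. Reads were aligned by the authors with Cell Ranger ATAC to mm10, and peaks were called per library. The deposited matrices hold counts of Tn5 cut sites per peak and cell, not normalized; 88.8% of Control and 91.6% of MOF cKO values above 0 were even, as 2 cut sites come from each fragment, so intervals were computed on sites divided by 2.

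From these files, peaks of both libraries that overlapped by 1 bp or more were merged into 214119 shared regions, and cells with at least 1000 sites were kept (2481 Control, 4348 MOF cKO). Cells were clustered by Leiden (leidenalg 0.10.2, resolution 1) on 30 components of the 50000 autosomal regions found in most cells, less those correlated with depth (absolute r of 0.5 or more), and clusters were named from marker promoters by cell class (at least 3 markers 2-fold above the clusters of other classes). Doublets were scored against simulated pairs of cells, and high-scoring cells were kept, with their removal as an alternative. Sites were summed per class and library and divided by the class total in shared regions. Regions within 500 bp of a start site of a protein-coding transcript (GENCODE vM21) were summed per gene as its promoter, features with fewer than 20 sites over both libraries were left out, and a change was called at 2-fold. Intervals are exact (Poisson for levels, conditional binomial for ratios, binomial for shares, 95%). With 1 library per genotype there was no test. The ratio and its interval were tested on simulated data. The 10 genes and all lists were chosen with earlier results of these data known. The text names all 10 genes, Kat8, the gene of each list that was highest and lowest, the 6 highest and 6 lowest non-promoter regions with at least 200 epithelial sites, and genes that share a promoter region. Sequences are RefSeq GRCm38.p6, to whose chromosome lengths all regions were checked. Alternatives were other totals, promoter windows, cell filters, thinning, overlap rules, clusterings and left-out clusters. Peaks called in 1 library were not compared. Analyses used Python 3.11.15 and SciPy 1.17.1.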

Additional observations from a re-analysis of the deposited data

Results flagged for a closer look

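In 5 of the 65 member regions measured in both classes, against 4.99% of all regions so measured, the change lay above 0 in one cell class and below 0 in the other, with counting intervals that excluded 0 in both. With 1 library per genotype the difference between the classes was not tested. The p19Arf start of Cdkn2a changed by 0.19 (0.03 to 0.34) in epithelial-like and by -0.39 (-0.54 to -0.23) in fibroblast-like cells. Regions 10.1 and 8.9 kb upstream of the Cdkn1a start changed by 0.73 (0.49 to 0.97) and 0.41 (0.26 to 0.57) in epithelial-like cells, and by -0.49 (-0.91 to -0.06) and -0.37 (-0.61 to -0.14) in fibroblast-like cells. The opposite order was found 10.3 kb upstream of Bax, with -0.50 (-0.70 to -0.31) and 0.53 (0.11 to 0.97), and 17.1 kb downstream of the Pmaip1 start, with -0.39 (-0.58 to -0.20) and 0.60 (0.38 to 0.83).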

How the results depend on the processing

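No paired analysis was possible because each genotype has 1 library, and leaving out a replicate was not possible for the same reason. The scale decided the direction of 6 of the member promoters, among them Cdkn2a (-0.0642 with the total of own peaks), while Trp53, Mdm2 and Bax were below 0 and Gdf15 above 0 in each of the 14 settings run. For Mdm2 this covers the shared promoter region only, without the promoter region called in MOF cKO alone. With size factors from the median promoter, which set the median of all promoters to 0, the epithelial median of the 10 genes was 0.0917 in place of -0.33, and the changes of Cdkn1a (0.11), Bbc3 (0.0364), Pmaip1 (0.0747), Ccng1 (0.26), Sesn2 (0.30) and the main Cdkn1a start (0.0298) turned to above 0. The list medians became 0.0420 for other p53 targets, -0.0809 for p53 regulators, -0.0462 for CDK inhibitors, -0.0782 for cell cycle drivers, -0.12 for BCL2 and caspase genes and -0.0343 for the stress response, and 21 of the 47 regions rose and 0 fell 2-fold. With sites per cell the epithelial median was -0.15, Ccng1 (0.0212) and Sesn2 (0.0550) were above 0, the lists were at -0.20, -0.32, -0.29, -0.32, -0.36 and -0.28 in the same order, the fibroblast median was -0.31, and 2 fibroblast regions fell. With the total of each library's own peaks the epithelial median was -0.48, the lists were at -0.53, -0.65, -0.61, -0.65, -0.68 and -0.60, and 2 epithelial regions fell. Thinning to 5000 sites gave 3 epithelial regions that fell, 0 fibroblast regions that rose (of 21 with enough sites) and a p16Ink4a start at 0.14. Without the cells of highest doublet score 1 fibroblast region fell, and at Leiden resolution 2 1 rose and 6 fell. Apart from the epithelial shares on the scale set by the median promoter, the shares of all regions past 2-fold were not computed under the alternatives. Where not given by the alternative's own construction, the cause was not tested. The 3 alternatives that left out epithelial-like clusters were chosen after seeing the data, and under them the epithelial median was -0.36, -0.33 and -0.34, with 11, 10 and 10 epithelial regions that rose and 1 that fell. Depth limits Gdf15 in fibroblast-like cells (32 and 61 sites) and the small classes. Peaks were called per library, from more sites in MOF cKO than in Control.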
